A study of Mus musculus with 12 samples.

Results

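The 10 SR splicing factor genes Srsf1, Srsf2, Srsf3, Srsf4, Srsf5, Srsf6, Srsf7, Srsf9, Srsf10 and Srsf11 were followed, with their annotated transcripts, in mouse 4T1 mammary carcinoma cells. They were taken by name from the 35521 genes found in the deposited tables. The annotation used here, GENCODE M21 on GRCm38, lists 85 transcripts for them. Of these, 29 are coding, 26 are of the type named retained intron, 15 are marked as targets of nonsense-mediated decay (NMD) and 15 belong to other noncoding types. These types are labels of the annotation. No retained intron transcript of Srsf1, Srsf4 or Srsf11 holds a whole intron of the gene's main coding transcript. 4T1 is an established carcinoma line of the BALB/c strain. Bulk RNA-Seq of total RNA was done in 3 groups with 4 libraries each. In Tu-Gr1+CD11b+-primed 4T1 cells (called Tu-primed below), 4T1 cells had been cocultured with Gr1+ cells isolated by magnetic sorting from tumors. In Spl-Gr1+CD11b+-primed 4T1 cells (Spl-primed), the Gr1+ cells came from the spleens of tumor-bearing BALB/c mice. Parental 4T1 cells were the third group. Per the labels, Gr1+ cells were taken on day 21 after tumor cell injection (the study's methods give another day), and coculture lasted 48 hours across a Transwell membrane with 0.4 µm pores. The labels do not say whether the libraries came from separate cultures, so p-values measure only the spread between libraries, which may be technical. Both primed groups were compared with the same 4 parental libraries. No coculture or Transwell step is given for the parental cells, so priming cannot be told apart from other differences in culture.

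SR proteins bind RNA through an RNA recognition motif and hold a domain rich in arginine and serine, and they help the spliceosome to choose splice sites. Many of their genes carry an ultraconserved "poison" exon or a retained intron in addition to the coding exons. Transcripts that include a poison exon meet a stop codon early and are degraded by NMD, while transcripts with a retained intron are often held in the nucleus. Through such transcripts, SR proteins are known to limit their own expression. Kinases of the CLK and SRPK families phosphorylate SR proteins.

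The stop codons of 5 NMD transcripts come first because these transcripts carry poison exons, whose places are given below. Each line gives 30 bases of the transcript, 5′ to 3′, from the GENCODE M21 transcripts of GRCm38, with the stop codon in capitals.
Srsf3-201: ctcaccaccctcTGAatctgcattagccag
Srsf7-203: agtcagtcgcctTGAttcagaatgtcacga
Srsf4-203: catgccccagctTAGagtgcttcaccctac
Srsf6-201: gccttttgccatTAGacgcagggtgatggt
Srsf11-206: cctggttcagccTGAactatataccaggcc
The Srsf3 stop lies at chr17:29039485-29039487 (plus strand), in a 456-base exon at chr17:29039454-29039909, inside intron 3 of the main coding transcript Srsf3-202. The Srsf7 stop lies at chr17:80205054-80205056 (minus strand), in a 460-base exon inside intron 3. The other stops lie in a 207-base exon of Srsf4 (intron 1), a 268-base exon of Srsf6 (intron 2) and a 109-base exon of Srsf11 (intron 2). The last exon junction lay 548 bases after the stop in Srsf3-201 and 699 bases after it in Srsf7-203. None of the coding transcripts of Srsf3, Srsf4, Srsf7 or Srsf11 holds its gene's 30 bases, whereas 1 of the 2 coding transcripts of Srsf6 does.

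The next lines show where 5 retained introns begin, because these introns set the retained intron transcripts apart from the spliced ones. Each line holds the last 12 bases of the exon and the first 18 of the intron, with the first 2 intron bases in capitals. The transcript that keeps the intron is named.
Srsf2-203: cctaagaaaatgGTaatgtctgcgggaatc
Srsf3-204: acctcggcgcagGTacttgagagagcacct
Srsf5-212: gtcagctggcagGTttgttgaaatacagtt
Srsf6-204: acggaagccgcaGTgagtccttacccccgc
Srsf7-206: aagaagaagcagGTatttaattaatgaagg
No coding transcript of these genes holds the bases shown. The introns are intron 2 of Srsf2 (1059 bases, chr11:116850962-116852020), intron 3 of Srsf3 (2150 bases, chr17:29038625-29040774), intron 5 of Srsf5 (1229 bases, chr12:80947866-80949094), intron 2 of Srsf6 (1283 bases, chr2:162932143-162933425) and intron 3 of Srsf7 (874 bases, chr17:80204388-80205261). In Srsf3, Srsf6 and Srsf7, the retained intron is the one that also holds the poison exon of the NMD transcript.

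**Figure D1:**
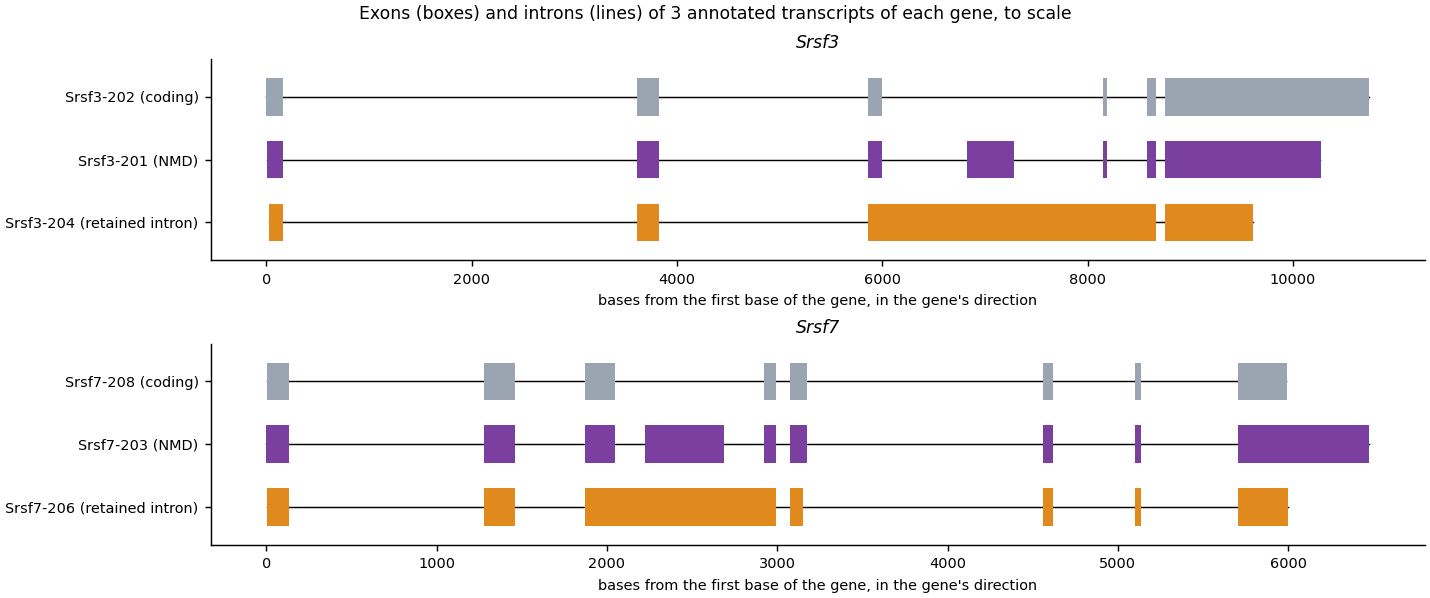
Exons (boxes) and introns (lines) of 3 annotated transcripts each of Srsf3 and Srsf7, drawn to scale in bases from the first base of the gene. The NMD transcripts (purple) hold an extra exon of 456 bases in Srsf3 and 460 bases in Srsf7, and the retained intron transcripts (orange) keep the intron around it.

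Libraries held between 24566183 and 31637755 assigned reads. Reads on retained intron and NMD transcripts of all genes took 5.64% to 5.83% of a library in Tu-primed cells, 5.37% to 6.13% in Spl-primed cells and 3.93% to 4.35% in parental cells. Mitochondrial genes took 2.09% to 2.53%, 2.52% to 3.15% and 4.24% to 6.73% of the reads, respectively. Of 6 epithelial markers, Krt8, Krt18, Krt7, Cdh1 and Epcam were detected well, whereas Krt14 averaged 0.343, 0.323 and 0.391 CPM (read counts scaled to library size) in Tu-primed, Spl-primed and parental cells. The summed epithelial markers reached 1836 to 2246 CPM in Tu-primed, 2332 to 2514 in Spl-primed and 2609 to 3893 in parental libraries. Of the 6, 4 were lower in Tu-primed than in parental cells, and 3 were lower and 1 higher in Spl-primed than in parental cells. The 13 granulocyte markers summed to 6.28 to 11.5 CPM in Tu-primed, 4.83 to 6.86 in Spl-primed and 5.35 to 6.57 in parental libraries, and 6 of them (Ngp, Camp, Mmp8, Retnlg, Elane, Mpo) had 0 reads in all 12. Of the 3 granulocyte markers tested, 2 were higher in Tu-primed than in parental cells, 2 were higher than in Spl-primed cells, and 0 differed between Spl-primed and parental cells. The 9 monocyte and macrophage markers summed to 23.0 to 24.2 CPM in Tu-primed, 18.3 to 21.0 in Spl-primed and 17.6 to 21.5 in parental libraries. Of 3 tested, 1 was higher than in parental cells in each primed group. The 6 fibroblast and lymphocyte markers summed to 76.0 to 97.7, 42.4 to 66.7 and 42.6 to 55.8 CPM. The 1 tested was higher in Tu-primed than in parental and Spl-primed cells. Against parental cells, 31.2% of all genes were higher and 28.0% lower in Tu-primed cells, and 25.7% and 22.5% in Spl-primed cells. Between the primed groups, 4.66% were higher in Tu-primed cells. The part of these shifts in the results was not tested. In bulk RNA, fewer cells of a kind and less RNA per cell cannot be told apart.

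To ask whether the amount of SR transcripts differed between primed and parental cells, reads were first summed over each gene. Of the 10 genes, 6 were higher in Tu-primed than in parental cells (Srsf4, Srsf5, Srsf6, Srsf7, Srsf10, Srsf11), and Srsf9 was lower. Over all 12555 genes tested, 31.2% were higher and 28.0% lower. The same 6 genes were higher in Spl-primed cells and none was lower by edgeR, also at an unadjusted p under 0.05, against 25.7% and 22.5% of all genes. The median log2 fold change of the 10 genes was 0.29 in Tu-primed and 0.32 in Spl-primed cells, beside 0.02 and 0.02 for all genes. The differences were tested by quasi-likelihood in edgeR, and p-values were adjusted over all genes (Benjamini-Hochberg, threshold 0.05).

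Srsf5 (chr12:80945504-80950507), an SR protein of the classical family, had 344, 364, 346 and 314 CPM in the Tu-primed libraries, 285, 306, 343 and 321 in the Spl-primed libraries, and 176, 204, 147 and 125 in the parental libraries. Neither primed group overlapped the parental cells. The log2 fold change was 1.07 ± 0.12 (SE) in Tu-primed and 0.94 ± 0.12 in Spl-primed cells (edgeR adjusted p = 6.05e-06 and 3.38e-05). Srsf11 (chr3:158010473-158036639), an SR-like protein found with the spliceosome, rose by a similar amount, from 119 ± 7.69 CPM (SD, n = 4) in parental cells to 245 ± 22.2 in Tu-primed and 227 ± 7.54 in Spl-primed cells. Its log2 fold changes were 1.04 ± 0.07 and 0.93 ± 0.07 (edgeR adjusted p = 1.24e-07 and 4.88e-07).

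Srsf6, Srsf7 and Srsf10 rose less. Srsf6 (chr2:162931528-162937121), which holds more than 1 RNA recognition motif, had 341 ± 9.68 CPM in Tu-primed, 345 ± 19.1 in Spl-primed and 244 ± 11.8 in parental cells (log2 fold changes 0.49 ± 0.05 and 0.50 ± 0.05). Srsf7 (chr17:80200080-80207307), which also holds a zinc knuckle, had 197 ± 2.45, 208 ± 14.9 and 144 ± 8.10 CPM (0.45 ± 0.06 and 0.53 ± 0.06). Srsf10 (chr4:135855747-135869908), which represses splicing when dephosphorylated, had 191 ± 6.92, 193 ± 9.40 and 141 ± 15.3 CPM (0.44 ± 0.07 and 0.46 ± 0.07). Srsf4 (chr4:131873617-131901706) had the smallest rise of the 6, from 58.0 ± 2.21 CPM in parental cells to 63.3 ± 1.87 in Tu-primed and 66.3 ± 3.35 in Spl-primed cells. Its call in Tu-primed cells (0.13 ± 0.05, edgeR adjusted p = 0.0404) was lost under 12 of 21 alternative settings, with adjusted p between 0.0127 and 0.117. Among them were the fits without parental library 1, 3 or 4 (0.0641, 0.115 and 0.117), Tu-primed library 2, 3 or 4 (0.0771, 0.0688 and 0.113) and Spl-primed library 2 or 4 (0.0541 and 0.0505).

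The gene totals of Srsf1, Srsf2 and Srsf3 did not pass the test in either comparison. Srsf3 (chr17:29032628-29043373), a small SR protein with a single RNA recognition motif, had 499, 519, 505 and 501 CPM in Tu-primed, 522, 484, 548 and 477 in Spl-primed, and 496, 496, 532 and 514 in parental libraries, so the 3 groups overlapped. Its log2 fold changes were -0.01 ± 0.05 and -0.01 ± 0.05 (edgeR adjusted p = 0.891 and 0.947). Srsf1 (chr11:88047373-88053755), the SR protein first known as SF2/ASF, had 470 ± 11.1, 493 ± 22.0 and 479 ± 9.16 CPM, and Srsf2 (chr11:116849901-116853094) had 306 ± 12.9, 325 ± 30.8 and 312 ± 4.41 CPM. Srsf9 (chr5:115327177-115333080), close in sequence to Srsf1, was lower in Tu-primed cells, at 65.0 to 69.3 CPM against 78.1 to 80.7 in parental cells (-0.22 ± 0.06, edgeR adjusted p = 0.00424). In Spl-primed cells it had 68.5 to 83.6 CPM and did not pass the test (-0.09 ± 0.06, edgeR adjusted p = 0.197), but it did without Spl-primed library 3 (-0.17, edgeR adjusted p = 0.00396). On the TPM scale, the median gene was shifted by 0.47 on the log2 scale in Tu-primed and by 0.40 in Spl-primed cells. Relative to that shift, Srsf9 was at -0.19 and the 6 rising genes at 0.17 to 1.19 in Tu-primed cells and 0.23 to 1.05 in Spl-primed cells.

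A gene total can hide changes among transcripts, so reads were next summed by transcript class. The classes of a gene share exons, so these sums rest on an estimated split of shared reads. Reads over introns or exon junctions alone were not counted. The plot of CPM by class shows that the classes did not move together. Retained intron transcripts were higher in both primed groups for 7 of the 8 genes that have them, with Srsf1 as the exception. NMD transcripts were higher in both groups for 6 of 7 genes tested, with Srsf2 as the exception. Coding transcripts were higher for 3 and lower for 4 of the 10 genes in Tu-primed cells, and higher for 3 and lower for 3 in Spl-primed cells. Over all genes, 57.1% of retained intron rows and 21.2% of NMD rows were higher in Tu-primed cells, and 53.5% and 18.0% in Spl-primed cells. Of all coding rows, 17.8% were higher and 36.3% lower in Tu-primed cells, and 12.3% and 33.8% in Spl-primed cells. Few were lower, with 3.22% and 2.92% of retained intron rows and 7.94% and 7.5% of NMD rows in Tu-primed and Spl-primed cells. A rise of retained intron transcripts was thus common in these libraries, and whether unspliced RNA or the RNA preparation differed between the groups was not tested. The median log2 fold change of retained intron transcripts was 2.80 in the 8 SR genes and 1.51 in all genes tested in Tu-primed cells, and 2.82 and 1.38 in Spl-primed cells. For NMD transcripts the medians were 2.15 in the 7 SR genes and 0.27 in all genes in Tu-primed cells, and 1.88 and 0.24 in Spl-primed cells.

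**Figure D2:**
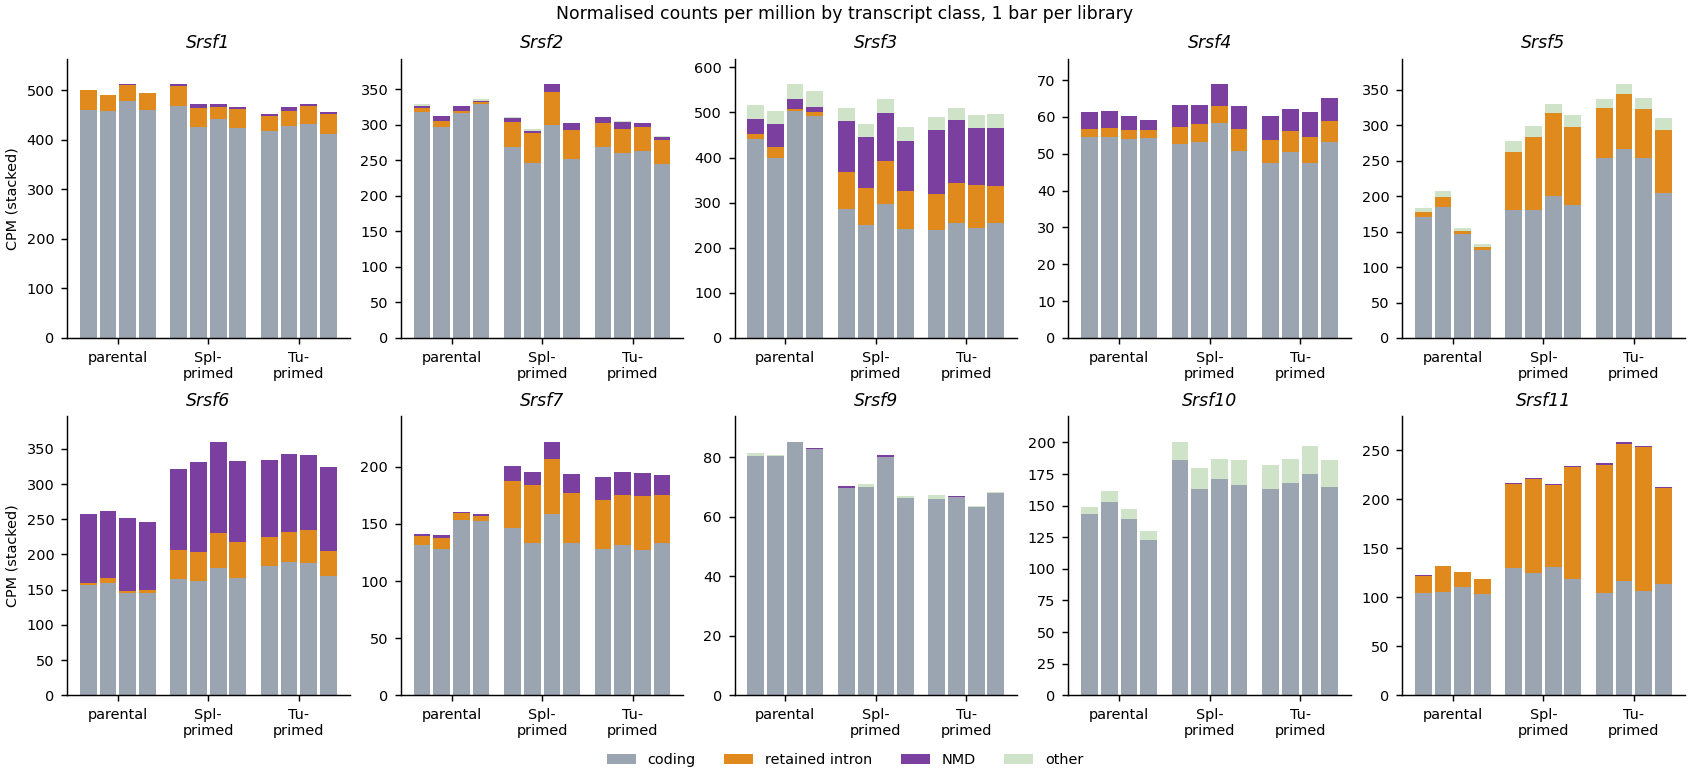
Normalised read counts (CPM) of the 10 SR genes in each of the 12 libraries, stacked by transcript class (coding, retained intron, NMD and other). The height of Srsf3 is alike in all groups, with 249 CPM of coding reads on average in Tu-primed cells against 459 in parental cells.

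Srsf3 showed the widest exchange between classes with no difference in the total. Its coding reads were 240, 254, 244 and 256 CPM in Tu-primed, 287, 251, 296 and 241 in Spl-primed, and 442, 399, 503 and 493 in parental libraries. All 8 primed libraries lay below all parental libraries, and the log2 fold changes were -0.88 ± 0.08 in Tu-primed and -0.77 ± 0.08 in Spl-primed cells (edgeR adjusted p = 1.50e-05 and 6.31e-05). Its NMD reads rose in turn, from 34.0, 52.6, 23.4 and 10.7 CPM in parental libraries to 141, 139, 127 and 130 in Tu-primed and 112, 114, 106 and 112 in Spl-primed libraries. The rise was 2.15 ± 0.33 and 1.88 ± 0.33 on the log2 scale (edgeR adjusted p = 0.000256 and 0.000879). Retained intron reads of Srsf3 rose from 11.2 ± 8.75 CPM to 86.3 ± 7.52 and 85.9 ± 6.46 (2.94 ± 0.38 and 2.94 ± 0.38).

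4 Srsf3 transcripts carried most of these reads. The coding transcript Srsf3-202 fell by 0.89 ± 0.08 and 0.77 ± 0.08 on the log2 scale, and the coding share of the gene was 36.1 and 31.8 percentage points lower than the 86.0% of parental cells. Srsf3-201, which holds the stop codon shown above, rose from 5.79% to 27.0% and 22.5%. Srsf3-204, which keeps introns 3 and 4, rose from 1.25% to 10.2% and 9.49%, and Srsf3-205, another retained intron transcript, from 0.827% to 6.77% and 7.47%. The call of Srsf3-205 in Spl-primed cells (edgeR adjusted p = 0.0137) was lost with only the 8 libraries compared (0.0542). In the parental group, the second library held the most NMD and retained intron reads and the fourth the fewest NMD reads, yet every parental library stayed below every primed library.

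In Srsf7 both classes rose too, while its coding reads did not pass the test (130 ± 2.88, 143 ± 12 and 141 ± 13.5 CPM in Tu-primed, Spl-primed and parental cells). Its NMD transcript Srsf7-203 had 19.9, 19.4, 19.9 and 16.9 CPM in Tu-primed, 12.9, 11, 15.1 and 16.5 in Spl-primed, and 1.31, 3.16, 1.19 and 1.52 in parental libraries. The primed and parental libraries were separated by a wide gap, and the log2 fold changes were 3.41 ± 0.30 and 2.95 ± 0.29 (edgeR adjusted p = 6.41e-05 and 0.000219). Srsf7-206, which keeps intron 3, rose from 6.76 ± 2.09 CPM in parental cells to 40.7 ± 2.13 in Tu-primed and 41.6 ± 3.22 in Spl-primed cells (2.59 ± 0.19 and 2.62 ± 0.19).

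Srsf6 differed from both, in that its poison exon transcript was already abundant in parental cells by the read estimates. That transcript, Srsf6-201, also ends earlier (chr2:162935026) than the coding Srsf6-203 (chr2:162937121). Reads over the poison exon alone were not counted, so its inclusion was not measured directly. Srsf6-201 had 98.8, 95.6, 102 and 96.2 CPM in parental libraries, which was 38.6% of the gene's reads. It reached 108, 109, 106 and 119 CPM in Tu-primed and 116, 127, 130 and 115 in Spl-primed libraries, and the log2 fold changes were only 0.18 ± 0.05 and 0.32 ± 0.05 (edgeR adjusted p = 0.0298 and 0.00212). The call in Tu-primed cells was lost under 8 of 20 alternative settings, among them without parental library 1, 2 or 4 (0.0653, 0.0740 and 0.0791) and Tu-primed library 1, 2 or 4 (0.0557, 0.0581 and 0.0912). Summed NMD reads lost the call without Tu-primed library 4 (0.0511). The share of NMD reads was 33.2% ± 2.44 (SD, n = 4) in Tu-primed, 36.2% ± 1.56 in Spl-primed and 38.6% ± 1.95 in parental cells. The retained intron transcript Srsf6-204 rose far more, from 4.54 ± 2.40 CPM to 41.5 ± 4.17 and 45.8 ± 5.19 (3.20 ± 0.30 and 3.34 ± 0.31). Coding reads of Srsf6 rose as well, from 151 ± 7.69 CPM to 183 ± 9.48 and 169 ± 8.27 (0.27 ± 0.05 and 0.16 ± 0.05). The latter call was lost under 8 of 20 alternative settings, among them without parental library 3 or 4 (0.102 and 0.0901), Spl-primed library 1, 3 or 4 (0.0734, 0.0819 and 0.0622) and Tu-primed library 1 (0.0514).

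In Srsf5 and Srsf2, retained intron reads rose, and few reads were assigned to NMD transcripts. The coding Srsf2-206 (1326 bases) and the NMD transcript Srsf2-202 (1336 bases) differ only at the 3′ end, so the split of reads between them is uncertain. Retained intron reads of Srsf5 were 69.5, 76.9, 69.0 and 89.2 CPM in Tu-primed, 81.1, 104, 117 and 109 in Spl-primed, and 6.38, 14.3, 5.18 and 5.45 in parental libraries (log2 fold changes 3.29 ± 0.28 and 3.72 ± 0.28). Most came from Srsf5-212, which keeps intron 5. Coding reads of Srsf5 rose in Tu-primed cells (245 ± 27.6 against 156 ± 27.0 CPM, 0.65 ± 0.12, edgeR adjusted p = 0.000724), and were 187 ± 9.41 CPM in Spl-primed cells without passing the test (0.26 ± 0.12, edgeR adjusted p = 0.0886). They passed without parental library 2 (0.0261), with a filter of at least 10 counts in every library (0.0262) and with upper-quartile scaling (0.0459). The coding transcript Srsf5-203 had 50.8, 43.3, 51.9 and 19.0 CPM in Tu-primed, 20.2, 10.4, 11.2 and 11.3 in Spl-primed, and 46.7, 49.7, 42.1 and 30.9 in parental libraries. It was lower in Spl-primed than in parental cells (-1.67 ± 0.32, edgeR adjusted p = 0.00383), and the fourth Tu-primed library lay nearest to the Spl-primed ones. Retained intron reads of Srsf2, an SR protein that stays in the nucleus, rose from 4.91 ± 3.09 CPM in parental to 34.1 ± 0.495 in Tu-primed and 41.3 ± 4.71 in Spl-primed cells (2.79 ± 0.31 and 3.07 ± 0.31). Its coding reads were lower, at 259 ± 10.4 and 267 ± 24.4 against 315 ± 13.8 CPM (-0.28 ± 0.06 and -0.24 ± 0.06). The call in Spl-primed cells was lost with upper-quartile scaling (edgeR adjusted p = 0.0840) and the filter of at least 10 counts in every library (0.116).

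In Srsf11, several transcripts of the retained intron type rose, none of which keeps a whole intron of the main coding transcript. Retained intron reads were 131, 140, 146 and 97.8 CPM in Tu-primed, 84.9, 95.8, 83.4 and 114 in Spl-primed, and 17.6, 25.8, 15.3 and 14.9 in parental libraries (2.81 ± 0.19 and 2.36 ± 0.19). Srsf11-213 rose by 2.76 ± 0.24 and 2.45 ± 0.23, Srsf11-208 by 3.40 ± 0.35 and 2.74 ± 0.34, and Srsf11-203 by 3.67 ± 0.29 and 3.16 ± 0.28. NMD reads of Srsf11 were few in all groups, at 1.75 ± 0.332, 1.25 ± 0.152 and 0.241 ± 0.0308 CPM. Coding reads were 110 ± 5.82 CPM in Tu-primed and 106 ± 3.04 in parental cells, and 126 ± 5.85 in Spl-primed cells, where they passed the test (0.25 ± 0.05, edgeR adjusted p = 0.00181). In Tu-primed cells the coding reads did not pass the test, but they did with upper-quartile scaling (0.14, edgeR adjusted p = 0.0421) and with a filter of at least 10 counts in every library (0.15, edgeR adjusted p = 0.0257).

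Srsf1, Srsf4, Srsf9 and Srsf10 differed from this in part. Retained intron reads of Srsf1 were 34.3 ± 4.44 CPM in Tu-primed, 34.9 ± 7.61 in Spl-primed and 34.6 ± 2.98 in parental cells, and the groups overlapped (-0.01 ± 0.15 and 0.01 ± 0.15). Its NMD reads rose from 1.09 ± 0.486 CPM to 5.10 ± 1.22 and 5.63 ± 1.41, which was 1.10% and 1.18% of the gene. Its coding reads were 422 ± 9.04, 440 ± 20 and 464 ± 9.60 CPM, lower in Tu-primed cells (-0.14 ± 0.04, edgeR adjusted p = 0.0192) but not with upper-quartile scaling (0.378), with the filter of at least 10 counts (0.540) or without parental library 3 (0.0534) or Tu-primed library 1 (0.0509). In Spl-primed cells they did not pass (0.169), except without Spl-primed library 1 (0.0487). Retained intron reads of Srsf4 rose from 2.24 ± 0.195 CPM to 6.19 ± 0.575 and 4.96 ± 0.704 (1.46 ± 0.14 and 1.14 ± 0.14), and its NMD reads by 0.70 ± 0.15 and 0.57 ± 0.15. The single NMD transcript Srsf4-203 lost its call under several alternative settings in both primed groups. Without parental library 1, for example, its edgeR adjusted p was 0.0912 in Tu-primed and 0.0979 in Spl-primed cells. Coding reads of Srsf4 did not pass in Tu-primed cells, but were lower with DESeq2 (adjusted p = 0.0460), with only the 8 libraries compared (edgeR adjusted p = 0.0490) and without Tu-primed library 4 (0.0223) or Spl-primed library 3 (0.0220). Srsf9 has no annotated retained intron transcript, and 99.0% ± 0.981 of its reads in Tu-primed and 99.4% ± 0.454 in parental cells were coding. Its coding reads were lower in both primed groups (-0.32 ± 0.06 and -0.20 ± 0.06), the latter not with upper-quartile scaling (edgeR adjusted p = 0.164), the filter of at least 10 counts (0.236) or only the 8 libraries compared (0.0727). Srsf10 has neither class, but its processed noncoding transcripts rose from 7.20 ± 1.47 CPM to 20.4 ± 1.53 and 16.4 ± 2.20 (1.51 ± 0.15 and 1.19 ± 0.15). Srsf10-201, which holds an extra 360-base exon in intron 2, carried most of them.

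**Figure D3:**
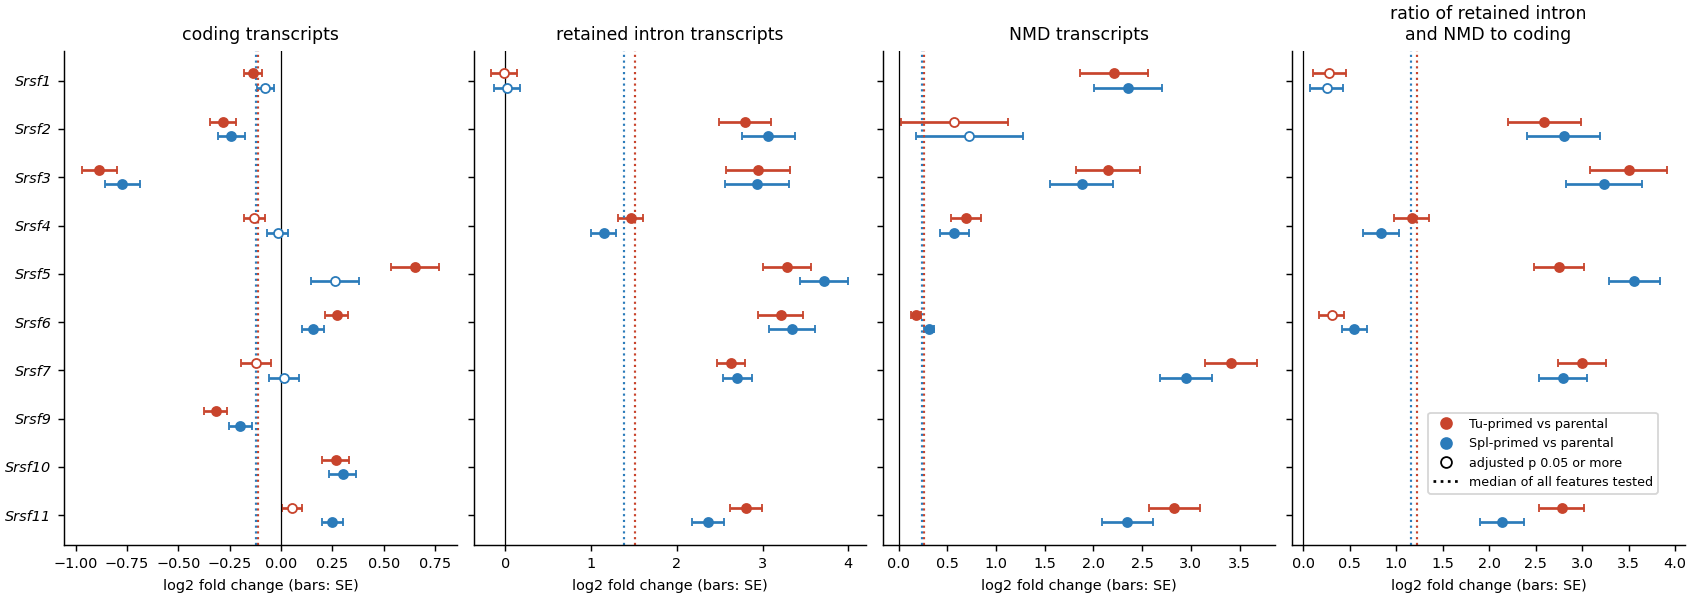
Log2 fold changes of the SR genes against parental cells by transcript class (coding, retained intron, NMD) and for the ratio of retained intron and NMD to coding reads, with SE bars. Filled points passed an adjusted p of 0.05, and dotted lines mark the median of all features tested, which was 1.22 for the ratio in Tu-primed cells.

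The median of all coding rows lay at -0.11 in Tu-primed and -0.12 in Spl-primed cells on the log2 scale, and small falls of coding reads were of that size. Relative to the median on the TPM scale, coding transcripts of Srsf3 were at -0.74 in Tu-primed and -0.62 in Spl-primed cells, those of Srsf2 at -0.15 and -0.10, those of Srsf9 at -0.13 and 0.00, and those of Srsf1 at -0.08 and 0.02. The TPM values themselves were higher in primed than in parental cells for Srsf1, Srsf2 and Srsf9 (by 0.33, 0.26 and 0.28 in Tu-primed cells). The median of all coding rows was itself shifted by 0.41 in TPM in Tu-primed cells. The sign of these 3 genes there thus depends on whether that shift is removed, whereas Srsf3 was lower with and without it (-0.33 and -0.27 in TPM without removal, in Tu-primed and Spl-primed cells). Per transcript length, coding transcripts in parental cells were most abundant for Srsf3, Srsf2 and Srsf1 (184 ± 11.6, 182 ± 17.9 and 165 ± 17 TPM), whose spreads overlapped. In Tu-primed cells Srsf5 (270 ± 31.9 TPM), Srsf2 (219 ± 11.1), Srsf1 (207 ± 7.42) and Srsf7 (171 ± 3.83) ranked above Srsf3 (146 ± 4.11), with Srsf2 and Srsf1 within their spread of each other, and Srsf4 was lowest in both (34.5 ± 1.58 and 25.9 ± 3.42).

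To compare isoforms within a gene independently of its total, the ratio of retained intron and NMD reads to coding reads was tested. Srsf9 had too few such reads and Srsf10 has no such transcript, which left 8 genes. The ratio was higher in Tu-primed than in parental cells for 6 of 8 (Srsf2, Srsf3, Srsf4, Srsf5, Srsf7, Srsf11) and in Spl-primed cells for 7 of 8 (Srsf6 as well). Over the 5399 genes tested, 47.6% were higher and 0.889% lower in Tu-primed cells, and 45.0% and 0.833% in Spl-primed cells. The median of the 8 SR genes was 2.67 and 2.46 on the log2 scale, beside 1.22 and 1.15 for all genes. Against coding reads, retained intron reads alone were higher for 7 of 8 SR genes in both primed groups (61.0% and 57.8% of all genes tested). NMD reads alone were higher for 5 of 7 in Tu-primed and 4 of 7 in Spl-primed cells (9.37% and 8.03%). Of all genes tested, 0.671% and 0.736% were lower for retained introns and 0.446% and 0.347% for NMD reads.

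The largest ratio differences were those of Srsf3 in Tu-primed cells (3.50 ± 0.41, edgeR adjusted p = 9.08e-05) and Srsf5 in Spl-primed cells (3.56 ± 0.27, edgeR adjusted p = 2.80e-05). Srsf7 changed by 3.00 ± 0.26 and 2.79 ± 0.26, Srsf11 by 2.78 ± 0.24 and 2.14 ± 0.24, and Srsf2 by 2.59 ± 0.39 and 2.80 ± 0.40. Srsf4 changed by 1.16 ± 0.19 and 0.84 ± 0.19, close to the median of all genes. Srsf6 was at 0.30 ± 0.13 in Tu-primed cells (edgeR adjusted p = 0.0808) and rose by 0.55 ± 0.13 in Spl-primed cells (edgeR adjusted p = 0.00572), a call lost with TPM in place of reads (0.38, limma adjusted p = 0.0783). Srsf1 did not pass in either (0.28 ± 0.18 and 0.25 ± 0.18).

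**Figure D4:**
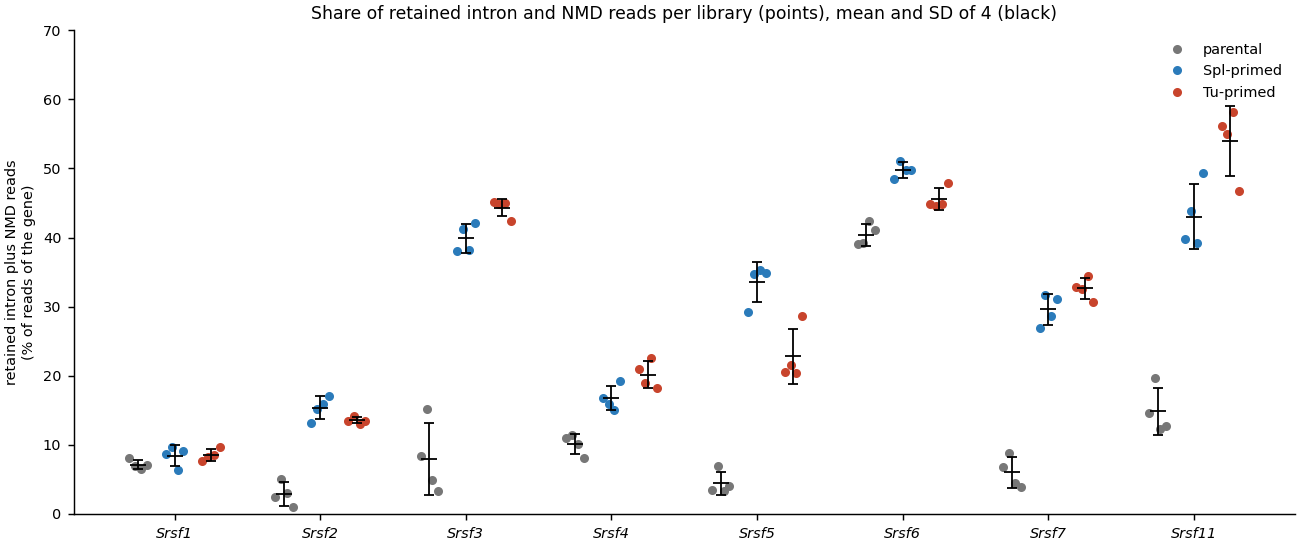
Share of the reads of each gene that lay on retained intron and NMD transcripts, per library (points), with the mean and SD of 4 libraries in black. For Srsf3 the share was 42.4% to 45.1% in Tu-primed, 38.0% to 42.1% in Spl-primed and 3.37% to 15.2% in parental libraries.

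The shares of retained intron and NMD reads show the size of these differences. Srsf3 had 45.1%, 44.9%, 44.9% and 42.4% in Tu-primed, 38.0%, 41.2%, 38.1% and 42.1% in Spl-primed, and 8.33%, 15.2%, 4.90% and 3.37% in parental libraries. Srsf11 had 56.2%, 55.0%, 58.2% and 46.7% in Tu-primed, 39.8%, 43.8%, 39.2% and 49.3% in Spl-primed, and 14.6%, 19.7%, 12.3% and 12.7% in parental libraries. Srsf7 reached 32.6% ± 1.56 in Tu-primed and 29.6% ± 2.21 in Spl-primed cells from 6.0% ± 2.27 in parental cells. In Srsf5 the share was 22.8% ± 3.96, 33.5% ± 2.89 and 4.45% ± 1.65, in Srsf2 13.5% ± 0.444, 15.3% ± 1.66 and 2.90% ± 1.71, and in Srsf4 20.2% ± 2.02, 16.8% ± 1.78 and 10.2% ± 1.46. For 7 of the 8 genes, all but Srsf1, neither primed group overlapped the parental group (45.5% of all genes in Tu-primed and 41.7% in Spl-primed cells lay wholly above, and 1.28% and 1.19% wholly below). With 4 libraries against 4, the smallest p of an exact two-sided permutation test is 0.0286.

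Tu-primed and Spl-primed cells were then compared directly. None of the 10 gene totals passed the test, beside 4.66% of all genes higher and 2.97% lower in Tu-primed cells, and at an unadjusted p under 0.05 there was 1, Srsf9 (-0.13 ± 0.06, edgeR adjusted p = 0.194), where 12.4% of all genes were lower by that rule. No SR gene passed in any transcript class with edgeR. At an unadjusted p under 0.05, 1 coding row was higher and 2 were lower (9.93% and 8.84% of all coding rows), 2 retained intron rows were higher (3.39%) and 1 NMD row was lower (2.73%). DESeq2 called the coding reads of Srsf5 higher and those of Srsf11 lower. With adjusted p, 3.01% of all coding rows were higher and 0.846% lower, 0.476% and 0.0216% of retained intron rows, and 0.439% and 0.0975% of NMD rows. For the ratio, edgeR called 0 of 5399 genes, with 149 at an unadjusted p under 0.05 and 2 SR genes among them, and limma called 0, with 144 and 2. These 2 were Srsf5, at -0.81 ± 0.26, and Srsf11, at 0.64 ± 0.24 (edgeR adjusted p = 0.997 for both). Without Tu-primed library 4 the Srsf5 difference was -0.97 ± 0.26 (edgeR adjusted p = 1.00). The share of retained intron and NMD reads did not overlap between the primed groups in Srsf3 (higher in Tu-primed, by 4.44 percentage points), Srsf5 (lower by 10.7 points) and Srsf6 (lower by 4.21 points). Over all genes, 3.19% were wholly higher and 1.3% wholly lower.

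Of the 61 SR transcripts tested singly, 28 were higher and 6 lower in Tu-primed than in parental cells, against 18.0% and 13.3% of all transcripts. In Spl-primed cells 28 were higher and 4 lower, against 14.9% and 11.4%. Between the primed groups edgeR called 0 of the 61, against 0.495% of all transcripts higher and 0.0707% lower. At an unadjusted p under 0.05, 1 was higher and 6 were lower, against 4.07% and 3.83% of all transcripts. DESeq2 called Srsf5-203 higher and Srsf11-202 lower in Tu-primed cells, and edgeR called Srsf5-203 higher without Tu-primed library 4 (1.87 ± 0.24, adjusted p = 0.00556). Salmon shares out each read over all transcripts it fits, so single transcripts of a gene that share exons are less certain than their sum. Class sums, shares and ratios carry this limit too, because coding, retained intron and NMD transcripts of a gene share exons.

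**Figure D5:**
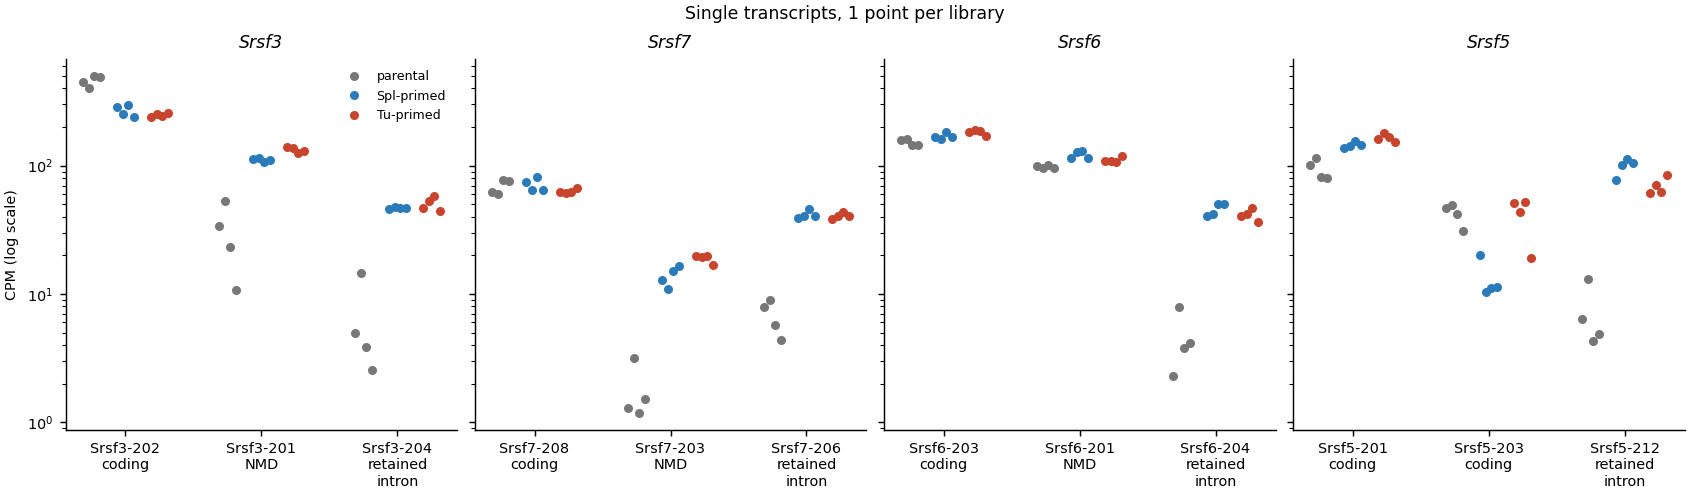
CPM of single transcripts of Srsf3, Srsf7, Srsf6 and Srsf5 on a log axis, 1 point per library and coloured by group. Srsf7-203 lies at 16.9 to 19.9 CPM in Tu-primed and 1.19 to 3.16 in parental libraries, whereas Srsf6-201 differs little between the groups.

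Genes that work with SR proteins were described in the same way. Of 26 genes for SR-related proteins, 25 were tested, and 15 were higher and 2 lower as gene totals in Tu-primed cells (14 and 3 in Spl-primed cells), beside 31.2% and 28.0% of all genes (25.7% and 22.5%). The ratio of retained intron and NMD to coding reads was higher for 24 of the 24 tested in Tu-primed and for 22 in Spl-primed cells (47.6% and 45.0% of all genes), with medians of 2.36 and 2.17. Snrnp48, a protein of the minor spliceosome, rose from 11.7 ± 2.19 CPM to 36.1 ± 2.19 in Tu-primed and 34.2 ± 3.40 in Spl-primed cells. The totals of Luc7l3 and Srek1 rose by 0.71 ± 0.05 and 0.94 ± 0.07 in Tu-primed cells. The smallest p-values of the ratio were those of U2af2, which binds the polypyrimidine tract (3.14 ± 0.27, share 8.55% ± 0.629 against 1.11% ± 0.464 in parental cells), Snrnp70 of the U1 particle (3.39 ± 0.30, 36.0% ± 3.38 against 5.46% ± 2.47) and Rnps1 (2.71 ± 0.34). The total of Snrnp70 did not pass the test (edgeR adjusted p = 0.285).

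Of 9 genes for SR kinases and nuclear import, 6 were higher and 2 lower as totals in Tu-primed cells, and 5 and 2 in Spl-primed cells, beside the same shares of all genes. Clk1, a kinase of SR proteins, had 107 ± 10.2 CPM in Tu-primed, 92.8 ± 7.02 in Spl-primed and 43.8 ± 5.77 in parental cells, and the share of its retained intron and NMD reads was 51.2% ± 2.55, 49.9% ± 3.64 and 10.3% ± 4.65. Clk2 rose from 19.7 ± 1.98 to 46.8 ± 2.53 and 47.7 ± 4.84 CPM, with shares of 57.4% ± 1.81, 55.7% ± 4.07 and 14.0% ± 9.14. The totals of Clk3 and Clk4 rose by 0.56 ± 0.06 and 0.99 ± 0.11 in Tu-primed cells, and their ratios by 1.4 ± 0.20 and 1.91 ± 0.21. The ratio was higher for 5 and lower for 1 of 8 genes of this list in both primed groups (47.6% and 45.0% of all genes higher, 0.889% and 0.833% lower), with medians of 0.99 and 1.10, beside 1.22 and 1.15 for all genes.

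Of 26 hnRNP genes, which often act against SR proteins at splice sites, 7 were higher and 9 lower in Tu-primed and 7 and 7 in Spl-primed cells, near the 31.2% higher and 28.0% lower (25.7% and 22.5%) of all genes. Hnrnph1 rose from 435 ± 50.4 CPM to 838 ± 45.4 and 788 ± 30.9, and Hnrnpdl from 90.6 ± 16.7 to 183 ± 21.0 and 164 ± 10.8. Ptbp2 rose by 1.19 ± 0.14 and 0.91 ± 0.14 on the log2 scale. The ratio was higher for 9 and 10 of 17 tested, near the 47.6% and 45.0% of all genes, with medians of 0.78 and 0.62, among them Pcbp2 (3.29 ± 0.40), Hnrnpa2b1 (1.60 ± 0.20) and Hnrnpl (1.56 ± 0.22) in Tu-primed cells. Of 17 NMD and exon junction genes, 3 were higher and 6 lower in Tu-primed and 3 and 4 in Spl-primed cells, beside those shares of all genes. Smg6, the endonuclease of NMD, rose by 0.51 ± 0.07 and 0.46 ± 0.07. Rbm8a of the exon junction complex fell by 0.43 ± 0.06 and 0.36 ± 0.06, and Smg5 fell by 0.36 ± 0.05 and 0.19 ± 0.05. The ratio was higher for 6 and 5 of 9 tested (47.6% and 45.0% of all genes), with Upf3a at 2.51 ± 0.32, Smg5 at 2.08 ± 0.27 and Smg9 at 3.39 ± 0.52 in Tu-primed cells.

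Among 2977 other genes with a mean of at least 50 reads of each class, the log2 ratio of U2af2 followed the mean of the 8 SR genes most closely over the 12 libraries (Pearson r = 0.997), followed by Msln (0.996), Zc3h18 (0.994), Ltbp2 (0.994) and Lmna (0.994). The retained intron and NMD share of Msln, a surface glycoprotein of mesothelial and carcinoma cells, was 10.7% ± 0.811 in Tu-primed, 10.0% ± 1.32 in Spl-primed and 0.799% ± 0.407 in parental cells. Of these 2977 genes, 807 had an r over 0.9, and the median r was 0.70. The points share libraries and a single contrast between primed and parental cells, so these values only describe likeness.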

How the data were processed

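RNA of 12 libraries had been prepared by the authors with the TruSeq Stranded kit and, per the labels, processed with FastQC, Trimmomatic 0.39 and Salmon 1.4.0 against GRCm38 (mm10). The annotation release is not given in the sources used here. The authors deposited 1 table per library with estimated counts and TPM per transcript, not pooled. A deposited gene table was not used. Of 117081 transcripts, 116021 matched GENCODE M21. Estimated counts were summed per gene and per transcript class, and rounded for the fits. Precision is given by the spread of 4 libraries. R 4.3.3 with edgeR 4.0.16 (filterByExpr, TMM, quasi-likelihood test, 1 fit of 12 libraries, Benjamini-Hochberg over all features) was used, with SE as the log2 fold change over the root of F. CPM are scaled by TMM. The ratio test used 2 columns per library (coding reads, and retained intron plus NMD reads) in genes with at least 10 reads of each in at least 4 libraries. In data simulated for Tu-primed against parental cells, 200 of 200 changed genes (12448 tested, 12 false calls) and 196 of 200 changed ratios (5247 tested, 9 false) were recovered at a fold of 2. The simulation gave all features the same fixed spread and left the rest unchanged, unlike these libraries, so its rates need not hold here. Alternatives were DESeq2 1.42.0, limma 3.58.1, other scaling and filters, 8 libraries, a replicate block, other class definitions, TPM (0.1 added) and each library left out. Members, lists and tests were chosen with earlier results of these data known. Named were all members and some of the 45 transcripts with at least 2% of their gene's reads. Also named were, in each list, the 3 genes with the smallest p in Tu-primed cells per test, and the 5 genes closest in ratio. Srsf11-206 was shown for its stop codon. Same-group libraries differed beyond sampling noise (chi-square divided by degrees of freedom was at least 3.46).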

Additional observations from a re-analysis of the deposited data

Results flagged for a closer look

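In 6 of 54 groups of 4 libraries tested, 1 library lay farther from the others than Dixon's 95% limit, where chance flags about 1 in 20 groups. The fourth Tu-primed library stood apart in 3 of them. It had the highest share of retained intron and NMD reads for Srsf5 (28.7%, against 20.4% to 21.5% in the other Tu-primed libraries) and Srsf6 (47.9%, against 44.5% to 44.9%), and the lowest for Srsf3 (42.4%, against 44.9% to 45.1%). The first Spl-primed library had the lowest share for Srsf5 (29.2%, against 34.8% to 35.3%). The gene total of Srsf1 was 465 CPM in the fourth parental library (482 to 484 in the others), and that of Srsf4 was 71.3 CPM in the third Spl-primed library (64.3 to 64.8 in the others). The cause was not tested.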

How the results depend on the processing

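No direction of a called SR gene turned under any edgeR, DESeq2 or limma alternative, and most counts of SR genes stayed within 1.5 times their value. Exceptions follow, and their cause was not tested unless stated. Upper-quartile scaling and the filter of at least 10 counts in every library, which both move the median of coding rows toward 0, left 1 of the 3 genes with lower coding reads in Spl-primed cells. That filter left 2 of 6 lower single transcripts in Tu-primed cells, and both settings left 2 of 4 in Spl-primed cells. Between the primed groups, DESeq2 called 1 coding row higher (Srsf5) and 1 lower (Srsf11), the stricter filter called 1 coding row lower (Srsf11) and 1 single transcript higher, DESeq2 called 1 single transcript higher and 1 lower, and the 8 libraries alone called 1 NMD row higher (Srsf3). With NMD reads alone, 4 ratios were higher in Spl-primed cells in place of 7, and fewer genes were tested.

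Without single libraries, 5 to 6 gene totals were higher in Tu-primed cells and 0 to 1 lower in Spl-primed cells. Coding reads were lower for 3 to 5 genes in Tu-primed cells, and higher for 2 to 4 and lower for 3 to 4 in Spl-primed cells. NMD reads were higher for 5 to 6 genes in Tu-primed cells. Single transcripts among the 45 with at least 2% of reads were higher for 20 to 22 (22 with all libraries) and lower for 4 to 8 in Tu-primed cells, higher for 19 to 22 and lower for 2 to 4 in Spl-primed cells, and higher for 0 to 1 between the primed groups.

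No pairing by replicate number was seen: 3 of 12 same-numbered pairs had deviations correlated above 0.1 (from -0.29 to 0.20), and 3 of 12 libraries correlated best with their own number. These correlations cannot exclude pairing. With the replicate block, 5 gene totals were higher in Tu-primed and 6 in Spl-primed cells, the ratio was higher for 6 and 7 genes, and single transcripts were higher for 20 and 19. Depth limits the NMD rows of Srsf5 and Srsf9, which had too few reads to be tested.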
